A study of Mus musculus with 14 samples.

Results

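The genes described here belong to TGF beta signalling and to the matricellular proteins that act beside it. They were picked by name, by a rule that uses no measured value, though with earlier results of these data known. They are the ligand genes Tgfb1, Tgfb2 and Tgfb3, the receptor genes Tgfbr1 and Tgfbr2, the inhibitory Smad7, and the matrix genes Sparc, Thbs1 and Loxl2. Of these 9 genes, 8 had a named probe set among the 22206 probe sets tested on the array, 1 each, and Loxl2 was not analysed here. Clariom S mouse arrays were used to measure expression in wild-type C57Bl6 mice, adult and male, after 2 weeks on diet. The mice ate CDAA, a choline-deficient diet given with cholesterol, glucose and fructose, or CSAA, the control diet. Total liver from CDAA mice gave 4 arrays and total liver from CSAA mice gave 4. It was the caudal lobe, taken after saline perfusion through the heart. Primary hepatocytes from CDAA mice gave 3 arrays and those from CSAA mice gave 3. They were freed by collagenase perfusion, and their RNA was extracted with another kit than that of total liver. The series describes the preparations as independent, without saying how many mice each drew on, so the p-values measure the spread between these preparations.

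TGF beta is secreted in a latent complex that is held in the matrix until integrins, proteases or thrombospondin 1 release the active ligand. The ligand binds the type II receptor (Tgfbr2), which phosphorylates the type I receptor (Tgfbr1), and this in turn phosphorylates Smad2 and Smad3. Smad7 is induced by the pathway and blocks the type I receptor. In liver the pathway is best known for driving stellate cells to become matrix-producing myofibroblasts, and macrophages, sinusoidal endothelial cells and stellate cells are known sources of its ligands.

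Levels are log2 intensities after RMA, so that a difference of 1 is a doubling. The arrays of the 2 preparations had different medians over all probe sets, 6.07 to 6.24 in total liver and 4.56 to 4.71 in hepatocytes, and look to have been normalized apart. Levels were therefore not set against each other between preparations, nor between genes, since each probe set has its own brightness. The 95th percentile of the negative control probe sets served as the background level. It lay at 9.96 to 10.23 on total liver arrays and at 6.84 to 8.01 on hepatocyte arrays, and a group with every array under it was called not well above background. Where this held for only the dimmer diet, the difference is followed by a lower bound, with the dim diet set at the background level. Where it held for both diets, a difference in log2 intensity is given without a fold. The root mean square deviation of an array from its group mean was larger in hepatocytes, at 0.363 to 0.594, than in total liver, at 0.229 to 0.320. The main fit shares 1 spread over all arrays, so a fit to hepatocyte arrays alone stands beside it, as an adjusted p for each of the 8 genes and as a count for each gene list.

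The promoters of the ligand gene and the matrix gene with the largest diet effects below, Tgfb1 and Sparc, are shown with that of Tgfb2, whose diet effect did not pass. They run from 250 bases before to 50 after the gene's start in the RefSeq annotation of GRCm38.p6, and are read 5′ to 3′ on the gene's strand. The promoter set at hand held 5 of the 9 genes. Capitals mark 4 motifs on either strand: the Smad-binding CAGAC, the AP-1 site TGANTCA, the GC box GGGCGG and the TATA box TATAAA.
Tgfb1, chr7:25686752-25687051, + strand: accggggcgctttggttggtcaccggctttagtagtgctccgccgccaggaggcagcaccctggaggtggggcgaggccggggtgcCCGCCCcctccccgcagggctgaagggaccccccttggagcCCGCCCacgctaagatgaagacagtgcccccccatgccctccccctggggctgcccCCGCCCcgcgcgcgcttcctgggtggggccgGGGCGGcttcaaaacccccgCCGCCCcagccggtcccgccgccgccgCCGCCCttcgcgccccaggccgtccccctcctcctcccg
Sparc, chr11:55420031-55420330, - strand: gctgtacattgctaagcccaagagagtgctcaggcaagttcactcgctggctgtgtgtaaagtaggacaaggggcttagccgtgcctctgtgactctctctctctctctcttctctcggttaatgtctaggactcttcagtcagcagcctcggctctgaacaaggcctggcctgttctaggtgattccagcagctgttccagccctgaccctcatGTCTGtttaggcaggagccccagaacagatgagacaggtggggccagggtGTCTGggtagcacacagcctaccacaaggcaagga
Tgfb2, chr1:186705940-186706239, - strand: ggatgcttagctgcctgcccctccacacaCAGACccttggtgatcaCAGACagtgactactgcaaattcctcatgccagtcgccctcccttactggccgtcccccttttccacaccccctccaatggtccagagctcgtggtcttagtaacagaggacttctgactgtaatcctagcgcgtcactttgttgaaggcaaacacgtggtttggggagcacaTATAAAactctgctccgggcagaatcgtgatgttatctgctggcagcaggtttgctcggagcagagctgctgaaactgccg
The Tgfb1 window held no CAGAC and 6 GC boxes, and its GC content was 77.0%, against a median of 52.7% over 32851 mouse windows of the same length. The Sparc window held 2 CAGAC, both as the reverse complement, at 55.3% GC. The Tgfb2 window held 2 CAGAC and a TATA box at 54.3% GC. Of all windows, 49.6% held CAGAC, 7.81% the AP-1 site, 35.7% the GC box and 13.6% the TATA box. CAGAC stood in the promoter of Sparc, which rose, and in that of Tgfb2, which did not pass. A match is a run of letters and no evidence of binding.

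The first question was which of these genes the diet moved in total liver. Of the 8 measured genes, 6 were higher on CDAA and none lower (limma, adjusted p under 0.05 over all 22206 probe sets). Of all probe sets tested, 10.3% passed in either direction, 6.73% were higher and 3.54% were lower. Sparc rose by 2.66, Thbs1 by 2.61 and Tgfb1 by 2.14 on the log2 scale, and the receptor genes by 1.21 and 1.15. The median over the 8 genes was 1.18, against -0.09 over all probe sets tested. In 6 of 8 genes every CDAA array lay above every CSAA array. Groups did not overlap in 25.1% of all probe sets.

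In hepatocytes the same 6 genes were higher on CDAA and none lower, against 11.0% higher and 7.74% lower among all probe sets (18.7% in either direction). Sparc and Tgfb1 stood out by size, and 1 of the 6 calls, that of Tgfb3, did not pass in hepatocyte arrays alone. The median over the 8 genes was 1.74, against -0.13 over all probe sets. The groups did not overlap in 7 of the 8 genes, against 26.6% of all probe sets. On CSAA, 7 of the 8 genes were not well above background in the hepatocyte arrays, and on CDAA 3 were. In total liver these numbers were 4 on CDAA and 5 on CSAA. In these bulk samples, fewer cells of a type and less RNA per cell cannot be told apart.

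**Figure D1:**
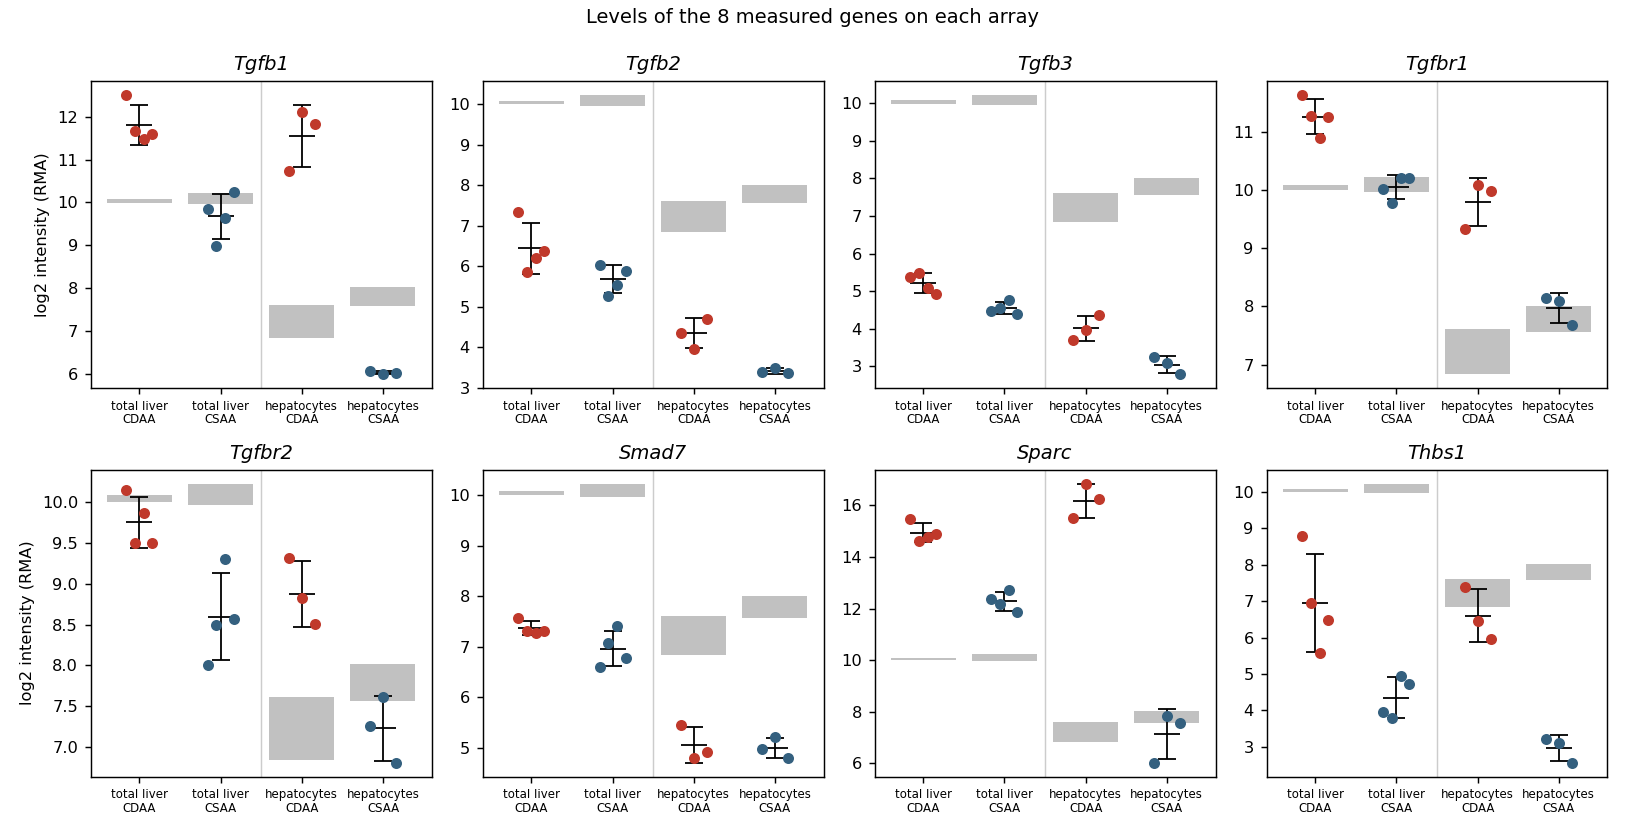
Level of each measured gene (log2 intensity after RMA, vertical axis, own scale per gene) on each array of the 4 groups, CDAA in red and CSAA in blue. Points are arrays, bars the mean ± SD, and grey bands the range of the background level over the arrays of the group. Tgfb1 and Sparc in hepatocytes lie above the band on CDAA and under its upper edge on CSAA.

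Among the ligands, Tgfb1 (probe set TC0700000424.mm.2) encodes the isoform most studied in liver fibrosis. Its levels in total liver were 12.51, 11.67, 11.48 and 11.59 in the CDAA arrays, against 9.85, 8.97, 9.64 and 10.23 in the CSAA arrays. The groups did not overlap, and all CDAA arrays but only 1 of 4 CSAA arrays lay above background. The difference was 2.14 ± 0.32 (log2 ± SE), with an adjusted p of 0.000403 by limma. No fold is given, since most CSAA arrays lay under background. In hepatocytes Tgfb1 had 10.74, 12.10 and 11.83 in the CDAA arrays, against 6.06, 5.99 and 6.01 in the CSAA arrays. The 3 CSAA arrays lay close together, all not well above background. The lowest CDAA array stood 4.68 above the highest CSAA array. The fitted difference was 5.54 ± 0.37 (limma, adjusted p = 3.89e-08, and 0.00023 in hepatocyte arrays alone). With the CSAA group at the background level Tgfb1 was at least 14.1-fold higher on CDAA.

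Tgfb2 (TC0100003754.mm.2) and Tgfb3 (TC1200002103.mm.2) encode the other two isoforms, and neither was above background on any array. Tgfb2 in total liver had 7.33, 5.85, 6.21 and 6.36 in the CDAA arrays, against 6.02, 5.25, 5.53 and 5.88 in the CSAA arrays. The groups overlapped, and the CDAA group was widened by replicate 1. The difference of 0.77 ± 0.28 did not pass (limma, adjusted p = 0.105), and without CDAA replicate 1 it was 0.47 (adjusted p = 0.314). In hepatocytes Tgfb2 had 4.36, 3.96 and 4.70 on CDAA, against 3.38, 3.48 and 3.36 on CSAA. These groups did not overlap, yet the difference of 0.93 ± 0.33 did not pass either (limma, adjusted p = 0.0593, and 0.0844 in hepatocyte arrays alone).

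Tgfb3 in total liver had 5.39, 5.49, 5.09 and 4.92 in the CDAA arrays, against 4.47, 4.55, 4.77 and 4.38 in the CSAA arrays. The gap between the groups was 0.15. The difference of 0.68 ± 0.20 passed narrowly (limma, adjusted p = 0.0396). It did not pass after joint quantile normalization (adjusted p = 0.0588), after centring on array medians (adjusted p = 0.0839), or without any 1 of 6 of the 8 arrays. In hepatocytes Tgfb3 had 3.70, 3.96 and 4.36 on CDAA, against 3.25, 3.08 and 2.79 on CSAA. Every CDAA array was higher, by 0.97 ± 0.23 on average (limma, adjusted p = 0.00683). In hepatocyte arrays alone this did not pass (adjusted p = 0.0819).

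The receptor genes rose in both preparations, by less than the matrix genes. Tgfbr1 (TC0400000519.mm.2), the type I receptor kinase, had 11.63, 11.26, 10.89 and 11.25 in the CDAA arrays of total liver, against 10.01, 9.77, 10.21 and 10.20 in the CSAA arrays. The groups were 0.68 apart at their nearest. The difference was 1.21 ± 0.22 (limma, adjusted p = 0.00172). Only 2 of the 4 CSAA arrays were above background, so no fold is given. In hepatocytes Tgfbr1 had 9.33, 10.08 and 9.98 on CDAA, against 8.15, 8.09 and 7.68 on CSAA. It was the only 1 of the 8 genes above background on all hepatocyte arrays of both diets. The difference was 1.83 ± 0.25, or 3.54-fold (limma, adjusted p = 6.77e-05, and 0.00831 in hepatocyte arrays alone).

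Tgfbr2 (TC0900003199.mm.2), the ligand-binding type II receptor, had 10.15, 9.50, 9.86 and 9.50 in the CDAA arrays of total liver, against 8.01, 8.50, 9.31 and 8.57 in the CSAA arrays. CSAA replicate 3 came within 0.19 of the lowest CDAA array. The difference was 1.15 ± 0.28 (limma, adjusted p = 0.0145), with 1 of 8 arrays above background, so that no bound was left. It did not pass without CSAA replicate 1 (0.96, adjusted p = 0.0545) or without CDAA replicate 1 (1.02, adjusted p = 0.0595). In hepatocytes Tgfbr2 had 9.31, 8.82 and 8.51 on CDAA, all above background, against 7.26, 7.61 and 6.81 on CSAA, none above it. The groups did not overlap. The difference was 1.65 ± 0.32, at least 2.20-fold against the background level (limma, adjusted p = 0.00171, and 0.019 in hepatocyte arrays alone).

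Smad7 (TC1800000805.mm.2), the feedback inhibitor, did not pass in either preparation and was above background on no array. In total liver it had 7.57, 7.32, 7.28 and 7.31 in the CDAA arrays, against 6.60, 7.08, 7.41 and 6.78 in the CSAA arrays. CSAA replicate 3 lay above 3 of the 4 CDAA arrays. The difference was 0.40 ± 0.21 (95% interval -0.04 to 0.85, limma, adjusted p = 0.264). In hepatocytes Smad7 had 5.46, 4.80 and 4.93 on CDAA, against 4.99, 5.21 and 4.80 on CSAA, in overlapping groups. The difference was 0.06 ± 0.24 (95% interval -0.45 to 0.58, limma, adjusted p = 0.89, and 0.925 in hepatocyte arrays alone) and turned to -0.10 after centring on array medians. These intervals do not show that Smad7 was equal on both diets.

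The matricellular gene Sparc (TC1100002783.mm.2) encodes a secreted collagen-binding glycoprotein that regulates collagen assembly. In total liver it had 15.47, 14.61, 14.77 and 14.89 in the CDAA arrays, against 12.39, 12.16, 12.71 and 11.87 in the CSAA arrays. All 8 arrays were above background and the groups were 1.90 apart at their nearest. The difference was 2.66 ± 0.37, or 6.30-fold (limma, adjusted p = 0.000208). In hepatocytes Sparc had 15.50, 16.81 and 16.24 on CDAA, against 6.03, 7.84 and 7.56 on CSAA. The lowest CDAA array stood 7.66 above the highest CSAA array, and all 3 CSAA arrays were not well above background. The fitted difference of 9.04 ± 0.43 ranked 17th by size among the 22206 probe sets (limma, adjusted p = 9.99e-10, and 0.000136 in hepatocyte arrays alone). Against the background level Sparc was at least 348-fold higher on CDAA.

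Thbs1 (TC0200001729.mm.2), thrombospondin 1, is a matricellular glycoprotein that activates latent TGF beta and is also stored in platelets. In total liver it had 8.80, 6.94, 5.59 and 6.49 in the CDAA arrays, against 3.95, 3.80, 4.93 and 4.71 in the CSAA arrays. None of the 8 arrays was above background, and the CDAA group had the widest spread of the 8 genes (SD 1.35, n = 4). The groups did not overlap, and the difference was 2.61 ± 0.52 (limma, adjusted p = 0.0039). Without CDAA replicate 1 it was 1.99 (adjusted p = 0.00595). In hepatocytes Thbs1 had 7.40, 6.44 and 5.97 on CDAA, against 3.23, 3.09 and 2.56 on CSAA. The CDAA array that was highest was also the only 1 above background. The difference was 3.64 ± 0.60 (limma, adjusted p = 0.000404, and 0.00159 in hepatocyte arrays alone), with no bound left.

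Exact permutation tests of single genes add little here. With 4 arrays against 4 the smallest two-sided p is 0.0286, and with 3 against 3 it is 0.1. Every gene whose groups did not overlap reached that value.

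The next question was whether the diet effect differed between the preparations, as total liver minus hepatocytes. Of the 8 genes, 2 passed, Sparc and Tgfb1, both with a smaller effect in total liver (limma, adjusted p under 0.05). Of all probe sets 2.57% passed, 0.212% with a larger and 2.36% with a smaller effect in total liver. For Sparc the difference of the effects was -6.38 ± 0.56 (limma, adjusted p = 1.22e-05), the 7th largest of all probe sets. For Tgfb1 it was -3.40 ± 0.49 (limma, adjusted p = 0.000853). With the CSAA hepatocytes held at the background level the differences were -5.79 for Sparc and -1.68 for Tgfb1. The total liver effects were kept as fitted for these values, which were not tested. For Tgfb1 only 1 of 4 CSAA arrays of total liver lay above background, so its value is not a bound. The other 6 genes ran from -1.04 ± 0.80 for Thbs1 (95% interval -2.74 to 0.67) to 0.34 ± 0.32 for Smad7 (95% interval -0.34 to 1.02), and none passed. The value for Thbs1 was -1.65 without total liver CDAA replicate 1, -0.64 without hepatocyte CDAA replicate 1, -0.58 without total liver CDAA replicate 3 and -1.95 after joint quantile normalization, and it passed in none of these. For Tgfbr1 the interval was -1.32 to 0.09 and for Tgfbr2 it was -1.41 to 0.42, so differences of over a doubling remain possible for both.

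**Figure D2:**
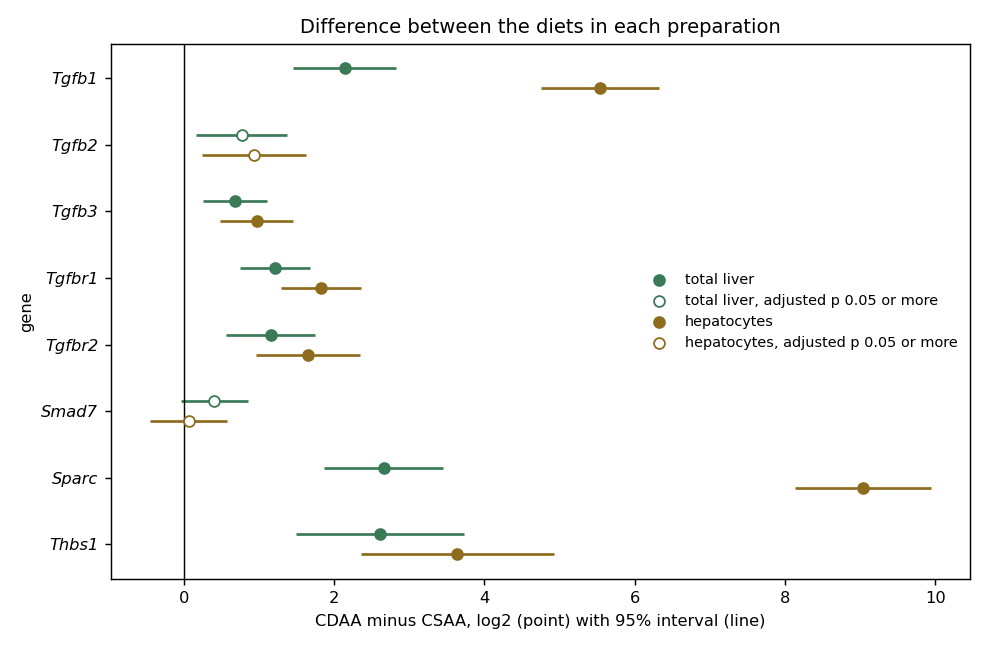
Difference between the diets for each measured gene (CDAA minus CSAA, log2, horizontal axis) in total liver (green) and hepatocytes (brown), with 95% intervals as lines and open points where the adjusted p was 0.05 or more. Tgfb1 (2.14 and 5.54) and Sparc (2.66 and 9.04) are the genes whose intervals do not overlap between the preparations.

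Markers of other liver cells moved with these genes, and their levels are given as means over each list. Over all probe sets 11.0% were higher and 7.74% lower in hepatocytes. In hepatocyte arrays, Kupffer cell markers ran from 11.77 to 13.48 on CDAA, against 5.81 to 6.35 on CSAA, and 12 of 12 rose. Recruited macrophage markers ran from 10.19 to 11.75 on CDAA, against 4.25 to 4.47 on CSAA, and 10 of 10 rose. Stellate cell and myofibroblast markers ran from 8.64 to 9.52 on CDAA, against 4.98 to 5.40 on CSAA, and 13 of 14 rose. Sinusoidal endothelial markers ran from 9.18 to 10.37 on CDAA, against 5.99 to 6.62 on CSAA, and 13 of 14 rose. The hepatocyte preparation on CDAA thus carried the markers of 4 other cell groups well above their CSAA levels. On CSAA 11 of 12 Kupffer, 9 of 10 recruited macrophage, 13 of 14 stellate and 10 of 14 endothelial markers were not well above background. On CDAA these numbers were 0, 2, 3 and 2. Hepatocyte markers ran from 16.97 to 17.74 on CDAA, against 17.96 to 18.26 on CSAA, and 6 of 14 fell, but 1 of 14 in hepatocyte arrays alone. In hepatocyte arrays alone 12 Kupffer, 10 recruited macrophage, 12 stellate and 13 endothelial markers rose. The part of these cells in the hepatocyte values of Tgfb1, Sparc, the receptor genes and Thbs1 was not tested.

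In total liver, recruited macrophage markers ran from 10.38 to 11.43 on CDAA, against 6.14 to 6.24 on CSAA, and 10 of 10 rose. Kupffer cell markers ran from 11.38 to 11.87 on CDAA, against 9.40 to 10.31 on CSAA, and 8 of 12 rose. Stellate cell and myofibroblast markers ran from 8.95 to 10.14 on CDAA, against 7.78 to 8.10 on CSAA, and 8 of 14 rose. On CDAA 4 of 10 recruited macrophage, 1 of 12 Kupffer and 7 of 14 stellate markers were not well above background, and on CSAA 8, 5 and 12 were. Sinusoidal endothelial markers ran from 9.90 to 10.69 on CDAA, against 10.05 to 10.28 on CSAA. Of them 1 of 14 rose, near the 6.73% of all probe sets. It was Lyve1 (2.58 ± 0.34), named after its value was seen. Hepatocyte markers ran from 17.26 to 17.43 on CDAA, against 17.55 to 17.61 on CSAA. Of them 0 of 14 passed by limma (1 at an unadjusted p under 0.05). In total liver arrays alone 4 of 14 fell, where 2010 of all 22206 probe sets did. The part of the cells marked by these lists in the total liver values of the 6 genes was not tested. Platelet markers, which bear on Thbs1, had 0 of 6 called in total liver by limma, also at an unadjusted p under 0.05, and all 6 were not well above background on CDAA. In hepatocytes 2 of 6 rose and 1 fell, against 11.0% and 7.74% of all probe sets, but 1 and 0 did in hepatocyte arrays alone, and 1 to 2 rose without single arrays. Of the other lists, neutrophil markers had 3 of 9 higher in total liver and 4 of 9 in hepatocytes, against 6.73% and 11.0% of all probe sets. In total liver 2 of 9 were higher whichever single array was left out, and all 9 were not well above background on either diet. In hepatocytes 7 of 9 were not well above background on CDAA and 9 on CSAA. Lymphocyte markers had 2 of 12 higher and 1 lower in total liver, against 6.73% and 3.54% of all probe sets, and 1 to 2 higher without single arrays. In hepatocytes 4 of 12 were higher, against 11.0% of all probe sets, but 2 in hepatocyte arrays alone and 3 to 6 without single arrays. All 12 were not well above background in total liver on either diet. In hepatocytes this held for 11 on CDAA and 12 on CSAA. Of 7 cholangiocyte markers 0 passed by limma in either preparation, and at an unadjusted p under 0.05 0 of 7 did in total liver and 2 of 7 in hepatocytes.

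**Figure D3:**
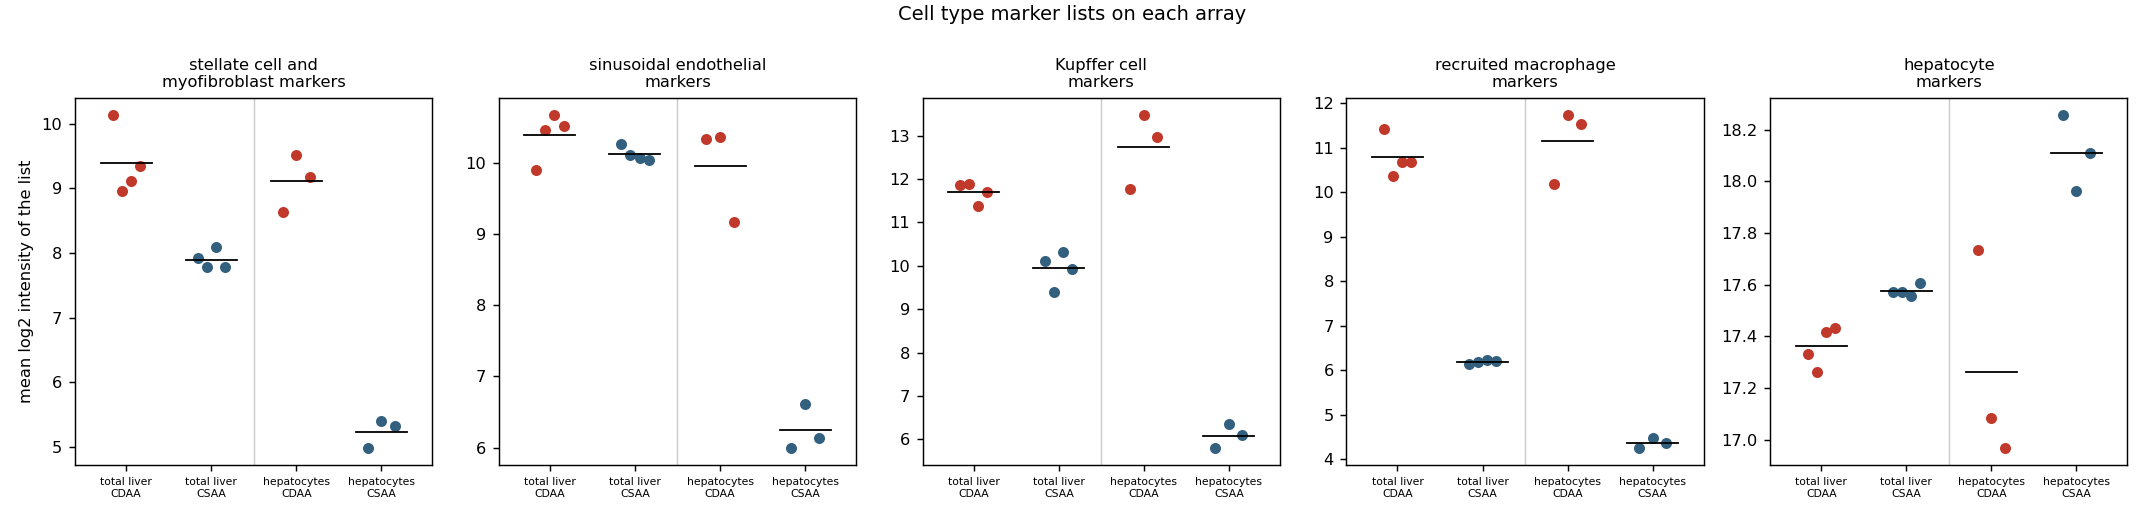
Mean level of 5 cell type marker lists (log2 intensity, vertical axis, own scale per list) on each array of the 4 groups, CDAA in red and CSAA in blue, with the group mean as a line. In hepatocytes the Kupffer, recruited macrophage, stellate and endothelial lists are higher on CDAA in all 3 arrays, and the hepatocyte list is lower.

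Within a diet, single arrays stood apart for several of the genes at once. In total liver, CDAA replicate 1 was the highest CDAA array for 7 of 8 genes, all but Tgfb3. The same array had a stellate marker mean of 10.14, against 8.95 to 9.35 in the other CDAA arrays, and a recruited macrophage mean of 11.43, against 10.38 to 10.67. Its endothelial mean was the lowest, at 9.90 against 10.47 to 10.69. Without it, 4 of the 8 genes still passed in total liver, Tgfb1, Tgfbr1, Sparc and Thbs1. Among the CSAA arrays of total liver, replicate 3 was the highest for 6 of 8 genes. In hepatocytes, CDAA replicate 1 was the lowest CDAA array for Tgfb1, Tgfb3, Tgfbr1 and Sparc. That array also had the lowest Kupffer mean, 11.77 against 12.97 and 13.48, and the highest hepatocyte mean, 17.74 against 16.97 and 17.08. Its recruited macrophage and stellate means, 10.19 and 8.64, were the lowest too. Its endothelial mean was not, at 10.34 against 10.37 in replicate 2 and 9.18 in replicate 3. The same array was at the same time the highest CDAA array for Tgfbr2, Smad7 and Thbs1. Among the CSAA arrays of hepatocytes, replicate 3 was the lowest for 6 of 8 genes. Whether the makeup of these preparations set the order was not tested.

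The genes with the most similar levels to each called gene across the 8 total liver arrays were named by Pearson correlation, as a description, since these arrays share the diet difference. For Tgfb1 these were Rgs19 (0.996), Nrros (0.993) and Srgap2 (0.993), and for Sparc they were Hexa (0.997), Sptlc2 (0.995) and Ptafr (0.995). For Tgfbr1 they were Nlrp3 (0.993), Lamc1 (0.993) and Ifi27l2a (0.992), and for Tgfbr2 Gadd45b (0.981), Tor1a (0.978) and Cox19 (0.977). For Thbs1 they were Dhx8 (0.985), Qser1 (0.985) and Itm2c (0.983), and for Tgfb3 Rps29 (0.984), Supt5 (0.981) and Spats2 (0.979). Over the 6 hepatocyte arrays the same pairs ran from 0.88 to 0.98 for Tgfb1, from 0.95 to 0.99 for Sparc and from 0.78 to 0.996 for Tgfbr1. Likeness in total liver did not carry over to hepatocytes for Dhx8 (-0.26) and Qser1 (0.38) with Thbs1, Supt5 (0.0016) with Tgfb3, or Tor1a (-0.22) and Cox19 (0.10) with Tgfbr2. The other 4 pairs ran from 0.75 to 0.94. As many as 619 genes correlated with Sparc at over 0.95, and 19 did so with Tgfbr2. Among the 8 genes themselves, Tgfb1 and Tgfbr1 were closest in total liver, at 0.978, and Tgfb1 and Sparc in hepatocytes, at 0.989.

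The genes around the ligands and receptors were read from lists of pathway members. The proteins that bind or release latent TGF beta had 4 of 17 genes higher and 0 lower in total liver, against 6.73% and 3.54% of all probe sets, with a median of 0.63. The 4 were the gelatinase gene Mmp2 (1.58 ± 0.27), Nrros (1.58 ± 0.37), which anchors latent TGF beta on myeloid cells, the latent binding protein gene Ltbp1 (0.99 ± 0.25) and the integrin gene Itgb1 (0.63 ± 0.19). The first 3 were not well above background on either diet. The count was 2 to 4 of 17 without single arrays, lowest without CDAA replicate 1, CDAA replicate 4 or CSAA replicate 4. In hepatocytes 7 of 17 were higher and 1 lower in the main fit, against 11.0% and 7.74% of all probe sets. The median was 0.78. In hepatocyte arrays alone 6 were higher and 0 lower. Of all probe sets 1450 were higher and 433 lower there, against 2439 and 1719 in the main fit. With the smallest p in the main fit were Nrros (4.00 ± 0.43), Mmp2 (2.20 ± 0.31), Ltbp4 (1.69 ± 0.24) and Lrrc32 (3.51 ± 0.54). Lrrc32 anchors latent TGF beta on the cell surface. None of these 4 was well above background on CSAA or left a bound. The gene that fell was plasminogen, Plg (-1.53 ± 0.32), named after its value was seen.

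Other ligands of the superfamily and their antagonists had 2 of 23 genes higher and 2 lower in total liver, near the 6.73% and 3.54% of all probe sets, with a median of -0.09. Gdf10 (1.85 ± 0.36, no bound left) and the proteoglycan gene Bgn (1.16 ± 0.34), which binds TGF beta, were higher. The activin subunit gene Inhba (-2.45 ± 0.54, bound -0.44) and Bmp4 (-1.18 ± 0.30, under background on both diets) were lower. The higher count was 1 of 23 whichever single array was left out. In hepatocytes 7 of 23 were higher and 1 lower in the main fit, against 11.0% and 7.74% of all probe sets. The median was 0.21. In hepatocyte arrays alone 7 were higher and 0 lower. Of all probe sets 1450 were higher and 433 lower there, against 2439 and 1719 in the main fit. In the main fit Bgn (6.09 ± 0.40) and Bmp5 (4.09 ± 0.31, bound 2.88) had the smallest p. Decorin, Dcn (7.18 ± 0.59), and Gdf10 (4.91 ± 0.42, bound 1.08) came next. Dcn is also 1 of the stellate markers. The activin subunit gene Inhbc fell (-2.37 ± 0.51) and is named after its value was seen.

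Of the other receptors and co-receptors, 0 of 12 were higher and 1 was lower in total liver by limma, with a median of -0.00. Over all probe sets 6.73% were higher and 3.54% lower. At an unadjusted p under 0.05, 1 of 12 was higher. In total liver arrays alone 2 of 12 were higher, where 2603 of all 22206 probe sets were. The gene that was lower by limma was the type II activin receptor Acvr2a (-0.74 ± 0.19). Acvrl1, Acvr2b and Bmpr1a followed by p and did not pass, with differences of 0.69 ± 0.23, -0.51 ± 0.22 and -0.39 ± 0.19. In hepatocytes 4 of 12 were higher and 1 lower (4 and 0 in hepatocyte arrays alone), with a median of 0.31. Over all probe sets 11.0% were higher and 7.74% lower in the main fit, so that 1 lower gene is near that share. In hepatocyte arrays alone 1450 of all 22206 probe sets were higher and 433 lower. Endoglin, Eng, a co-receptor abundant on endothelial cells, rose by 6.12 ± 0.37. The endothelial type I receptor Acvrl1 (2.02 ± 0.26) and the co-receptor Tgfbr3 (1.85 ± 0.30) rose too, with no bound left, and so did the decoy receptor Bambi (1.75 ± 0.28), under background on both diets. Bmpr1a fell (-0.74 ± 0.21). The endothelial marker list rose in the same arrays, as given above, and its part was not tested.

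Among the Smads and their regulators 1 of 21 was higher in total liver, which is no more than the 6.73% of all probe sets, and 0 were lower, with a median of 0.19. The gene was the corepressor Tgif1 (1.34 ± 0.32, no bound left). Without CDAA replicate 1 none was higher by limma; at an unadjusted p under 0.05 over all arrays 2 of 21 were. The next by p, Strap, Smurf2 and Smad2, had 0.35 ± 0.16, -0.38 ± 0.18 and 0.36 ± 0.20, and did not pass. In hepatocytes 6 of 21 were higher, against 11.0% of all probe sets, but 1 of 21 in hepatocyte arrays alone. The median of all 21 was -0.11, opposite in sign to the calls. Tgif1 (2.07 ± 0.37, bound 0.81), the inhibitory Smad6 (1.22 ± 0.31, under background on both diets), Smad2 (0.90 ± 0.24, no bound left) and Strap (0.66 ± 0.19) had the smallest p.

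Genes known as TGF beta targets had the highest counts of these lists. In total liver 13 of 26 were higher and 1 was lower, against 6.73% and 3.54% of all probe sets, with a median of 1.14. Fibrillar collagen Col3a1 (3.96 ± 0.33, bound 1.64), tropomyosin Tpm1 (2.54 ± 0.26), Col1a2 (2.20 ± 0.28, under background on both diets) and vimentin, Vim (3.08 ± 0.42, bound 1.98) had the smallest p. In hepatocytes 11.0% of all probe sets were higher and 7.74% lower in the main fit. Of the target genes 14 of 26 were higher there and 1 was lower, also in hepatocyte arrays alone, with a median of 2.11. They were led by Col3a1 (6.70 ± 0.38, bound 3.99), Tgfbi (6.04 ± 0.39, bound 5.18), a secreted matrix protein named for its induction by TGF beta, Vim (6.62 ± 0.48, bound 4.28) and Col1a2 (3.45 ± 0.33, no bound left). The gene that fell in both was Klf10, an early TGF beta response gene, with -1.95 ± 0.33 in total liver (bound -0.78) and -1.70 ± 0.38 in hepatocytes. It is named after its values were seen. Of the 26 targets 4 are also stellate and myofibroblast markers, Acta2, Col1a1, Col1a2 and Col3a1, so the 2 lists are not separate evidence.

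Other matricellular genes had 7 of 23 higher and 1 lower in total liver, against 6.73% and 3.54% of all probe sets, with a median of 0.14, and 4 to 6 of 23 were higher without single arrays. Galectin-3, Lgals3 (5.62 ± 0.53, bound 0.56), also a recruited macrophage marker, and galectin-1, Lgals1 (2.66 ± 0.43, bound 0.62) were higher. Tenascin C, Tnc (1.89 ± 0.28), and fibulin 5, Fbln5 (1.86 ± 0.31), were higher but not well above background on either diet. The gene that fell was Ccn6 (-0.85 ± 0.20), named after its value was seen. In hepatocytes 10 of 23 were higher and 2 lower (9 and 0 in hepatocyte arrays alone), with a median of 0.30. The main fit had 11.0% of all probe sets higher and 7.74% lower. The same genes had the smallest p, Lgals3 with 8.31 ± 0.61 (bound 4.55), Lgals1 with 6.20 ± 0.49 (bound 5.33), Fbln5 with 4.06 ± 0.36 (bound 0.16) and Tnc with 2.64 ± 0.32 (under background on both diets). The 2 that fell were Smoc1 (-1.62 ± 0.50) and Thbs4 (-0.83 ± 0.27), named after their values were seen.

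Lysyl oxidases and other genes of collagen cross-linking, the family of the unmeasured Loxl2, had 5 of 15 higher and 1 lower in total liver. Their median was 0.47, and over all probe sets 6.73% were higher and 3.54% lower. Lysyl oxidase, Lox (1.61 ± 0.23), the procollagen proteinase enhancer Pcolce (1.67 ± 0.36) and Loxl1 (1.10 ± 0.28) were higher but not well above background on either diet. Transglutaminase 2, Tgm2, rose by 2.03 ± 0.48 (bound 1.16). The count was 2 to 4 of 15 without single arrays, lowest without CDAA replicate 1. In hepatocytes 7 of 15 were higher and 2 lower (6 and 1 in hepatocyte arrays alone), with a median of 0.97. The main fit had 11.0% of all probe sets higher and 7.74% lower. The collagen chaperone Serpinh1 (5.16 ± 0.44, bound 1.93), Pcolce (3.73 ± 0.42, bound 0.41) and the prolyl hydroxylase P4ha1 (2.45 ± 0.41, bound 1.20) rose. The procollagen C-proteinase Bmp1 fell, with -1.34 ± 0.36 in total liver and -2.49 ± 0.41 in hepatocytes. P4ha3 fell in hepatocytes (-0.81 ± 0.22). It and the total liver value of Bmp1 were picked after their values were seen.

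**Figure D4:**
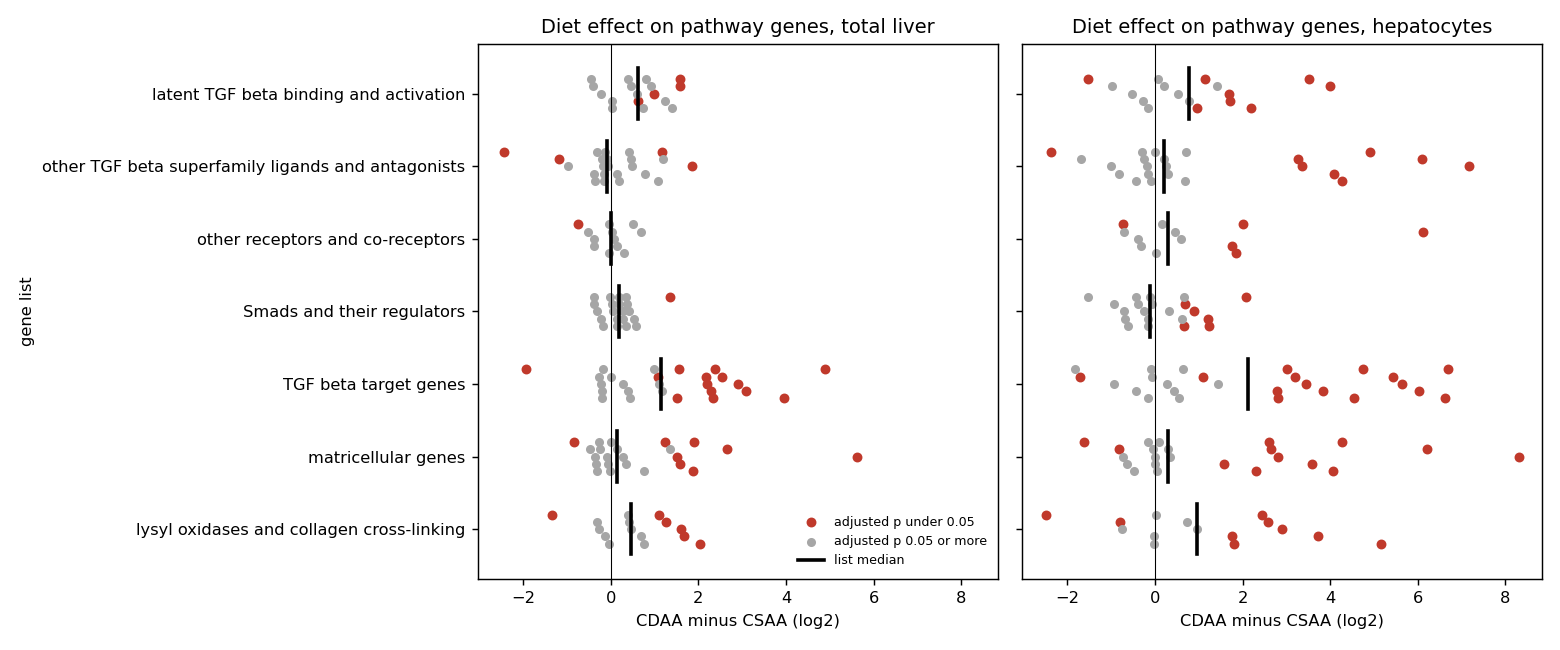
Difference between the diets (CDAA minus CSAA, log2, horizontal axis) for the genes of 7 pathway lists (vertical axis) in total liver (left) and hepatocytes (right). Red points passed (adjusted p under 0.05), grey points did not, and bars are list medians. The target list has the highest median in both, 1.14 in total liver and 2.11 in hepatocytes.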

How the data were processed

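Per the submitters' processing notes the arrays were processed with RMA (version not given in the sources used here), and the deposited values are log2 intensities per probe set. Of 28846 probe sets 6640 controls were left out and 22206 tested without a filter. Names came from the platform annotation given with the series, and 19572 tested probe sets had a name. A gene with several probe sets was read from its brightest. Apart from the RefSeq promoters no coordinates are given, since the values name no genome build.

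With limma 3.58.1 (R 4.3.3) a linear model of 4 group means was fitted over the 14 arrays, with 10 residual and 5.11 prior degrees of freedom. Moderated tests were two-sided, adjusted by Benjamini and Hochberg's method over the 22206 probe sets, with a threshold of 0.05. Background was the 95th percentile of 5222 negative control probe sets per array. Precision is limited by the number of arrays. The members, lists, background level and alternatives were chosen with earlier results of these data known. From each pathway list the 4 genes with the smallest p per diet contrast are named, and any others are marked. The code was tested on simulated data. Where each preparation had its own simulated spread, the fit to all arrays was not held to a limit on false calls. Alternatives were the spread of a preparation alone, robust moderation, other scalings, array weights, a filter on the dimmest 30%, the replicate block and leaving out each array.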

Additional observations from a re-analysis of the deposited data

Results flagged for a closer look

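Tgfb1 and Sparc are listed here because the diet effect itself differed between the preparations by a test of the difference. For Tgfb1 the effect in total liver minus that in hepatocytes was -3.40 ± 0.49 (limma, adjusted p = 0.000853), and for Sparc it was -6.38 ± 0.56 (limma, adjusted p = 1.22e-05). With a spread per preparation both still passed (adjusted p = 0.0025 for Tgfb1 and 1.1e-05 for Sparc). Each gene was higher on CDAA in 4 of 4 total liver arrays and in 3 of 3 hepatocyte arrays than in any CSAA array. Both sizes are limited by background, since all hepatocyte CSAA arrays lay under it, as did most total liver CSAA arrays for Tgfb1. The share of Kupffer, macrophage, stellate and endothelial cell RNA in the differences of the effects was not tested.

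Smad7 in total liver is listed because CDAA replicate 1 lay far from the other CDAA arrays, at 7.57 against 7.28 to 7.32. Its gap took 0.861 of the group's range. About 1 in 20 groups is listed in this way by chance.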

How the results depend on the processing

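Of the 8 genes, 4 to 6 passed in total liver and 6 in hepatocytes when single arrays were left out, and Tgfb1 and Sparc passed for the difference of the effects under every alternative run. Counts over all probe sets moved with the samples in the fit, the weights and the scaling. In total liver 2279 passed, against 4613 with total liver arrays alone and 4992 with array weights, and 1510 to 1911 without single arrays, the lowest without CDAA replicate 1. In hepatocytes 4158 passed, against 1883 with hepatocyte arrays alone, 6635 after centring on hepatocyte markers, 6806 with array weights and 3039 to 5811 without single arrays, the highest without CDAA replicate 1. For the difference of the effects 570 passed, against 2725 with array weights and 396 to 2265 without single arrays, the highest again without hepatocyte CDAA replicate 1. Scaling moved the direction of the calls. Those higher were 65.6% in total liver and 58.7% in hepatocytes, against 43.4% and 39.8% after centring on array medians and 94.6% and 97.0% after centring on 4 hepatocyte markers (Cps1, Pck1, Hnf4a, Asgr1). The median of all differences was -0.09 and -0.13, against -0.23 and -0.29, and 0.48 and 0.83 under these scalings. The differences of the 6 called genes stayed above 0 under each of them.

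Of the pathway lists in total liver, latent binding had 4 of 17 higher, against 9 with total liver arrays alone and 10 after centring on hepatocyte markers. Superfamily ligands had 2 of 23, against 4 and 5, and target genes 13 of 26, against 16 and 16. Over all 22206 probe sets the higher calls rose as well, from 1494 to 2603 and 2644 under the same settings.

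Calls that changed with the scaling, weights or block were those of Tgfb2 and Tgfb3. Tgfb2 passed in total liver after centring on hepatocyte markers (adjusted p = 0.0208), with array weights (0.0465) and with the replicate block (0.0487). In hepatocytes it passed after joint quantile normalization (0.00302), centring on hepatocyte markers (0.00188) and with the block (0.0238). Tgfb3 in total liver did not pass with the block (0.0858). Signs turned for Smad7 and Tgfb2 and, in the alternatives run, for no other gene. Smad7 in hepatocytes had 0.06, against -0.10 after centring on array medians, -0.17 with array weights, and -0.14 (without CDAA replicate 1) to 0.20 (without CDAA replicate 2) when single arrays were left out. Its difference of the effects, 0.34, became -0.047 after centring on hepatocyte markers. That of Tgfb2, -0.16, became 0.030 with array weights. Without single arrays it ran from -0.46 (without total liver CDAA replicate 1) to 0.032 (without total liver CDAA replicate 2). The cause was not tested. The labels do not say whether equal replicate numbers share a mouse or a day. Deviations from the group means of same-numbered hepatocyte arrays correlated at 0.35, -0.21 and 0.26, and those of total liver arrays at between -0.13 and 0.02. These values cannot settle whether samples were paired, since differently numbered arrays were not set beside them. With the replicate number as a block 6 of 8 genes passed in total liver, 7 in hepatocytes and 2 for the difference. Over all 22206 probe sets 2215, 4285 and 615 passed with this block. What lies under background limits Tgfb2, Tgfb3, Smad7 and Thbs1, whose sizes rest on values near the array's noise. It also limits Tgfbr2 in total liver, above background on 1 of 4 CDAA and 0 of 4 CSAA arrays. On CSAA in total liver 1 of 4 arrays was above it for Tgfb1 and 2 of 4 for Tgfbr1. In hepatocytes Tgfb1, Tgfbr2 and Sparc lay under it on CSAA.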
